A study of Mus musculus with 19 samples.

Results

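Retrotransposon RNA was described here in control spermatogonia of mice at postnatal day 7, and the controls of 2 mutant lines were compared. The controls were the 11 mRNA-seq libraries, of 19 in the series, that GEO labels as wild type or heterozygous. The *Dnmt3l* line gave 5 of them, 2 labelled wild type (*Dnmt3l*+/+) and 3 labelled heterozygous (het), and the *Pld6* line gave 6, 3 wild type (*Pld6*+/+) and 3 heterozygous. The remaining 8 libraries, 3 *Dnmt3l* KO and 5 *Pld6* KO, are given only as levels. Each library is 1 biological replicate of EpCAM-positive testis cells purified by FACS, EpCAM being a surface protein of undifferentiated spermatogonia, and polyadenylated RNA was sequenced. Wild-type mice of a line carry both intact copies of the gene and heterozygous mice carry 1, and both lines had been backcrossed to C57BL/6J. The labels put 3 of the 5 *Dnmt3l* controls among the heterozygous mice where the methods text has 2, which does not touch a comparison of all 5. The tables used here list repeats and no genes, so the cell type could not be checked here against marker genes. The study itself reports high germ-cell purity from DNA methylation of the *Lit1* region. It found the transcriptomes of these cells most similar to undifferentiated spermatogonia, although *Kit*, a marker of differentiated ones, was expressed.

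DNMT3L has no catalytic activity of its own and assists the *de novo* DNA methyltransferases that methylate retrotransposons in male germ cells before birth. PLD6 is a protein of the mitochondrial surface that is needed to make PIWI-interacting small RNAs (piRNAs), which guide part of that methylation. Retrotransposons are copied through RNA. Long interspersed elements (LINEs, in mouse chiefly L1) encode their own reverse transcriptase in ORF2. LTR elements are related to retroviruses and have an internal region between a pair of long terminal repeats, which hold the promoter. In many LTR elements, but not all, the internal region has *gag* and *pol*. The short interspersed elements (SINEs) B1 and B2 encode no protein, derive from 7SL RNA and from a tRNA, respectively, and can be transcribed by RNA polymerase III. Many SINE copies also lie inside genes, and a read assigned to a SINE consensus may come from such a copy in another transcript. The tables do not separate these sources.

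Expression was given as RPM, the reads of a subfamily scaled to the mapped reads of its library, for each of 259 subfamilies. The methods text describes the subfamilies analysed as mouse-specific, and repeats not listed are outside every sum and share given here. Retrotransposon reads here means the reads of the 259 listed subfamilies. RPM is not divided by length, so a share of the summed RPM is a share of these reads, not of RNA molecules. The summed RPM over the 259 subfamilies was 3382 to 4413 in the *Dnmt3l* controls and 2103 to 2730 in the *Pld6* controls, which is 0.210% to 0.441% of the total to which RPM is scaled. Read totals are not in these tables, so the depth behind a value is unknown. *Pld6* het replicate 1 stood apart from the other 10 control libraries. It listed 159 subfamilies at 0 RPM where the others listed 60 to 90, and only 25 values lay above 0 and below 1 RPM, against 74 to 100. Among the 43 subfamilies with at least 5 RPM in all other controls it was the lowest library for 20 and the highest for 4. The comparisons of the lines are therefore given with and without it.

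Among the listed subfamilies, a few carried most of the retrotransposon reads of control spermatogonia. The 5 most abundant by the mean over both lines, B2_Mm1a, B2_Mm1t, L1_Mm_orf2, MMERVK10C and B2_Mm2, made up over 50% of the mean summed RPM (52.3%), and 30 subfamilies made up 90%. The same 5 led in the *Pld6* controls alone, whereas in the *Dnmt3l* controls B1_Mm (199 RPM) came before MMERVK10C (179 RPM) and L1_Mm_orf2 (175 RPM). At the other end, 161 subfamilies had a mean below 1 RPM and together held 0.843% of the reads, and 25 were at 0 RPM in all 11 libraries. SINE B2 was the largest family, with 38.5% of the reads on average over the 11 libraries, followed by L1 (17.2%), SINE B1 (10.9%), MMERVK10 (7.66%), IAP (7.30%) and MaLR (4.93%). This order did not hold in every library. L1 was the largest family in *Pld6* WT replicate 3 (26.0% against 19.6% for SINE B2) and het replicate 2 (25.4% against 22.4%). SINE B1 exceeded L1 in *Dnmt3l* het replicate 1 (13.9% against 11.1%) and het replicate 2 (12.4% against 10.5%). MMERVK10 and IAP both exceeded SINE B1 in *Pld6* WT replicate 3, het replicate 1 and het replicate 2, where SINE B1 took 8.79%, 7.92% and 9.14%. MMERVK10 and IAP had nearly equal shares in the *Dnmt3l* controls (5.87% and 5.95%) and in the *Pld6* controls without het replicate 1 (8.33% and 8.34%), while in het replicate 1 MMERVK10 took 13.2% and IAP 8.83%. VL30, MERVL, MuLV, ERVB4 and ETn/MusD had 2.75%, 2.52%, 2.00%, 1.35% and 1.18%, while MuRRS/LTRIS had 0.53% and MMERGLN 0.24%. The 150 subfamilies outside the named families had 2.94%.

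**Figure D1:**
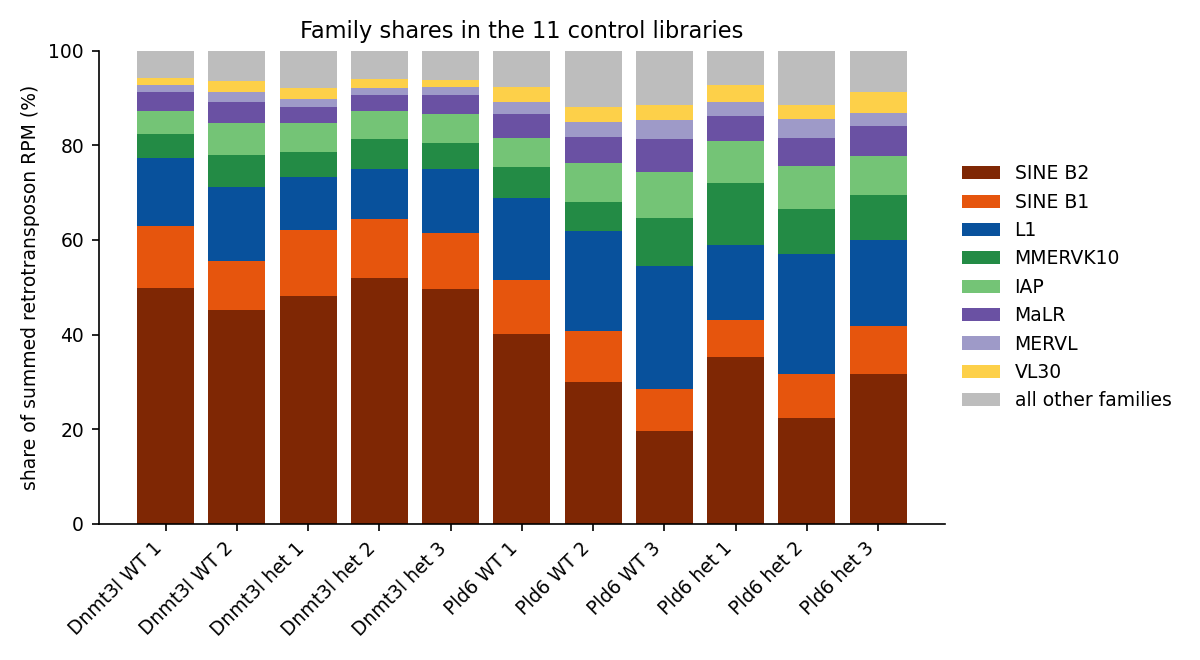
Share of the summed RPM (%) taken by each family in the 11 control libraries, 1 stacked bar per library, with the SINE families at the bottom. SINE B1 and B2 together took 55.6% to 64.5% in the 5 *Dnmt3l* controls and 28.4% to 51.5% in the 6 *Pld6* controls.

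Within SINE B2, the subfamily B2_Mm1a held 61.4% ± 4.35 of the family's reads (SD, n = 11), B2_Mm1t 25.1% ± 2.80 and B2_Mm2 13.6% ± 2.46. The reads of SINE B1 were spread more evenly, over B1_Mm (38.7% ± 3.17), B1_Mus1 (34.1% ± 2.59) and B1_Mus2 (27.2% ± 0.834). Thus 1 subfamily led the B2 reads, whereas the largest share of a B1 subfamily in any library was 43.5%, for B1_Mm.

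The L1 reads came almost wholly from the body and 3′ part of the element. The 2 ORF2 sequences held 48.4% of the L1 reads and the 9 sequences of the 3′ region 44.6%, averaged over the 11 libraries. The 7 sequences of the 5′ region, which hold the promoter and ORF1, held 4.97%. L1_Mm_orf2, the ORF2 of young mouse L1, was the most abundant L1 subfamily, at 175 ± 19.04 RPM in the *Dnmt3l* controls (SD, n = 5) and 173 ± 43.9 RPM in the *Pld6* controls (SD, n = 6). L1Md_A_5end, the 5′ region of the young L1Md_A subfamily, was at 9.01 ± 1.01 and 8.63 ± 4.33 RPM, and L1Md_A_3end, the 3′ region of the same subfamily, at 29.0 ± 3.51 and 32.6 ± 3.16 RPM. The 7 sequences of the 5′ region summed to 6.10 RPM in *Pld6* het replicate 1 and to between 14.4 and 35.7 RPM in the other *Pld6* controls.

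In several families of LTR elements, internal regions held most of the reads. MMERVK10C, an endogenous retrovirus of the ERVK class, held 78.1% ± 2.85 of the MMERVK10 reads (SD, n = 11), with RLTR10C, its LTR, at 9.40 ± 1.04 and 8.21 ± 0.771 RPM in the *Dnmt3l* and *Pld6* controls. IAPEz-int and IAP1-MM_I, internal regions of intracisternal A particles, held 38.4% ± 2.64 and 24.4% ± 1.99 of the IAP reads. MMVL30-int, the internal region of the VL30 elements, held 79.6% ± 2.95 of its family and MERVL, the internal region of an endogenous retrovirus known for its activity in the early embryo, 77.9% ± 3.14. LTRs held more in other families. In MaLR elements, which are mostly non-autonomous, the LTR MTA_Mm (34.5% ± 4.79) stood beside the internal region MT-int (32.9% ± 1.48). In MuRRS/LTRIS, the LTRs LTRIS_Mus (31.6% ± 5.52), LTRIS2 (19.1% ± 3.57) and LTRIS_Mm (14.9% ± 5.80) together held more of the reads on average than the internal regions MuRRS-int (19.03% ± 11.1) and MuRRS4-int (2.51% ± 1.36). The exception was *Pld6* het replicate 1, where MuRRS-int alone held 50.5% of the family. In the *Dnmt3l* controls its share ran from 13.1% to 18.1%. MMERGLN, one of the least abundant families, was at 6.56 ± 1.199 RPM in the *Dnmt3l* controls and 7.07 ± 2.06 RPM in the *Pld6* controls when its internal region and LTR were summed.

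The controls of the 2 lines were then compared with each other, since each KO has controls of its own line. All 6 SINE B1 and B2 subfamilies were higher in the *Dnmt3l* controls, by 1.84- to 2.90-fold in mean RPM, while the reads outside SINEs summed to nearly the same RPM in both lines. For each SINE subfamily the lowest *Dnmt3l* control was above the highest *Pld6* control. Of 105 subfamilies tested by limma on log2(RPM + 1), 7 were higher in the *Dnmt3l* controls (6.67%) and 0 were lower (0%) at a Benjamini-Hochberg adjusted p under 0.05. At an unadjusted p under 0.05, 13 were higher and 0 lower. The 7 were the 6 SINE subfamilies and IAP1-MM_LTR. The median log2 difference of the 105 subfamilies was 0.16, or 0.07 without *Pld6* het replicate 1. Line is confounded with everything the mice or libraries of a line share, such as parents, sorting and library preparation, and these cannot be told apart here.

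B2_Mm1a, the most abundant subfamily, was at 1289.6 and 969 RPM in the *Dnmt3l* wild-type libraries and at 1079, 1343 and 1134 RPM in the heterozygous ones. In the *Pld6* line it was at 653, 488 and 226 RPM in wild type and at 519, 314 and 428 RPM in heterozygous mice. The lowest *Dnmt3l* value was thus well above the highest *Pld6* value, although the *Pld6* values spread over 2.89-fold among themselves. The log2 difference was 1.48 (SE 0.23, 95% interval 0.98 to 1.98, adjusted p = 5.62e-04 from limma) and 1.54 without *Pld6* het replicate 1 (adjusted p = 7.45e-04).

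B2_Mm1t showed the largest log2 difference with all 11 libraries, while without *Pld6* het replicate 1 that of B2_Mm1a was slightly larger. It was at 504 and 368 RPM in *Dnmt3l* wild type and at 515, 678 and 400.4 RPM in *Dnmt3l* heterozygous libraries. In *Pld6* controls it was at 237, 208 and 116 RPM in wild type and at 161, 154 and 143 RPM in heterozygous mice. The log2 difference was 1.54 (SE 0.20, 95% interval 1.11 to 1.97, adjusted p = 1.43e-04 from limma) and 1.53 without *Pld6* het replicate 1.

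B2_Mm2 had the smallest adjusted p. Its values were 255, 189, 235, 277 and 215 RPM in the *Dnmt3l* controls and ran from 83.3 RPM over a median of 92.0 RPM to 120.2 RPM in the *Pld6* controls. The log2 difference was 1.25 (SE 0.14, adjusted p = 5.20e-05 from limma) and 1.22 without *Pld6* het replicate 1.

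The B1 subfamilies differed in the same direction. B1_Mm was at 235, 139, 220, 232 and 168 RPM in the *Dnmt3l* controls and at 63.7 to 113 RPM, with a median of 78.1 RPM, in the *Pld6* controls. Its log2 difference was 1.23 (SE 0.19, adjusted p = 5.62e-04 from limma). B1_Mus2 had a mean of 128 ± 20.2 RPM against 63.9 ± 14.5 RPM (SD, n = 5 and 6), a log2 difference of 1.00 (SE 0.17). B1_Mus1 had 152 ± 24.0 RPM against 82.6 ± 15.3 RPM, a log2 difference of 0.88 (SE 0.15). Their adjusted p-values from limma were 9.93e-04 and 0.00118. The differences without *Pld6* het replicate 1 were 1.16 for B1_Mm, 0.91 for B1_Mus2 and 0.80 for B1_Mus1, and all 3 passed. *Pld6* wild-type replicates 1 and 2 were the 2 highest *Pld6* libraries for all 3 B1 subfamilies and came nearest to the *Dnmt3l* controls without reaching them.

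**Figure D2:**
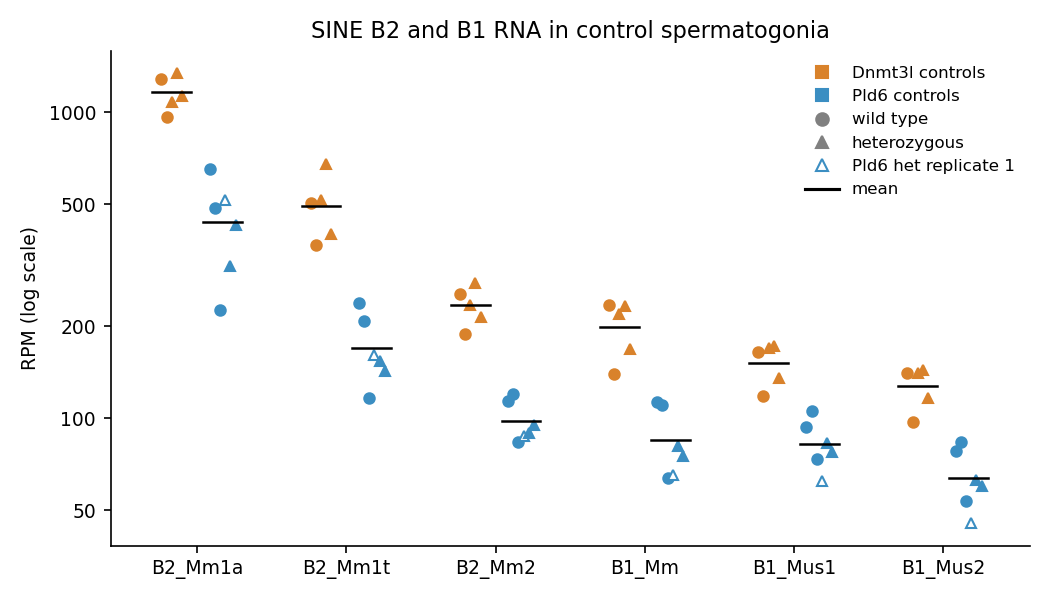
RPM (log axis) of the 6 SINE B1 and B2 subfamilies in each control library of the *Dnmt3l* and *Pld6* lines; circles are wild type, triangles heterozygous, the open triangle is *Pld6* het replicate 1 and bars are means. For every subfamily all 5 *Dnmt3l* values lie above all 6 *Pld6* values, with B2_Mm1a at 969 to 1343 RPM against 226 to 653 RPM.

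Summed over the 6 subfamilies, SINE reads were at 2588 and 1881 RPM in *Dnmt3l* wild type and at 2359, 2846 and 2169 RPM in *Dnmt3l* heterozygous libraries. They were at 1288, 1116 and 616 RPM in *Pld6* wild type and at 941, 784 and 878 RPM in *Pld6* heterozygous libraries. The groups did not overlap, and the difference in mean log2 sum was 1.36 (p = 0.00433 by a two-sided exact permutation over the libraries, which 5 against 6 cannot undercut, and adjusted p = 0.0184 over 17 sums). Without *Pld6* het replicate 1 it was 1.37 (exact p = 0.00794, adjusted p = 0.0337). The sum of SINE B2 differed by 1.46 and that of SINE B1 by 1.06, both with the same p. The ratio of B2 to B1 reads was 3.98 ± 0.353 in the *Dnmt3l* and 3.09 ± 0.810 in the *Pld6* controls, a difference that did not pass (exact p = 0.0519, adjusted p = 0.519 over 10 ratios). Without *Pld6* het replicate 1, which had the highest B2 to B1 ratio of its line (4.44), the exact p was 0.0159 and the adjusted p 0.159.

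Outside SINEs, the summed RPM was 1480 ± 80.2 in the *Dnmt3l* controls and 1424 ± 221 in the *Pld6* controls. The difference in mean log2 sum was 0.07 (exact p = 0.532), or 0.03 without *Pld6* het replicate 1 (exact p = 0.770). Of the 99 tested subfamilies outside SINEs, 73 had a positive and 26 a negative log2 difference with a median of 0.14. Without *Pld6* het replicate 1, 56 were positive and the median was 0.04. None of the 12 family sums outside SINE B1 and B2 passed the test on RPM as deposited. The sum of MERVL, with a log2 difference of -0.16 (adjusted p = 0.696), passed when libraries were rescaled by median ratios (-0.27, adjusted p = 0.0442 by exact permutation). The sum of L1 differed by 0.05 on the log2 scale (423.6 to 589 RPM against 344 to 631 RPM), MMERVK10 by 0.11 and MaLR by 0.06. The sum of IAP was 228 ± 23.4 RPM against 198 ± 28.6 RPM, a log2 difference of 0.21 (exact p = 0.0952, adjusted p = 0.270).

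**Figure D3:**
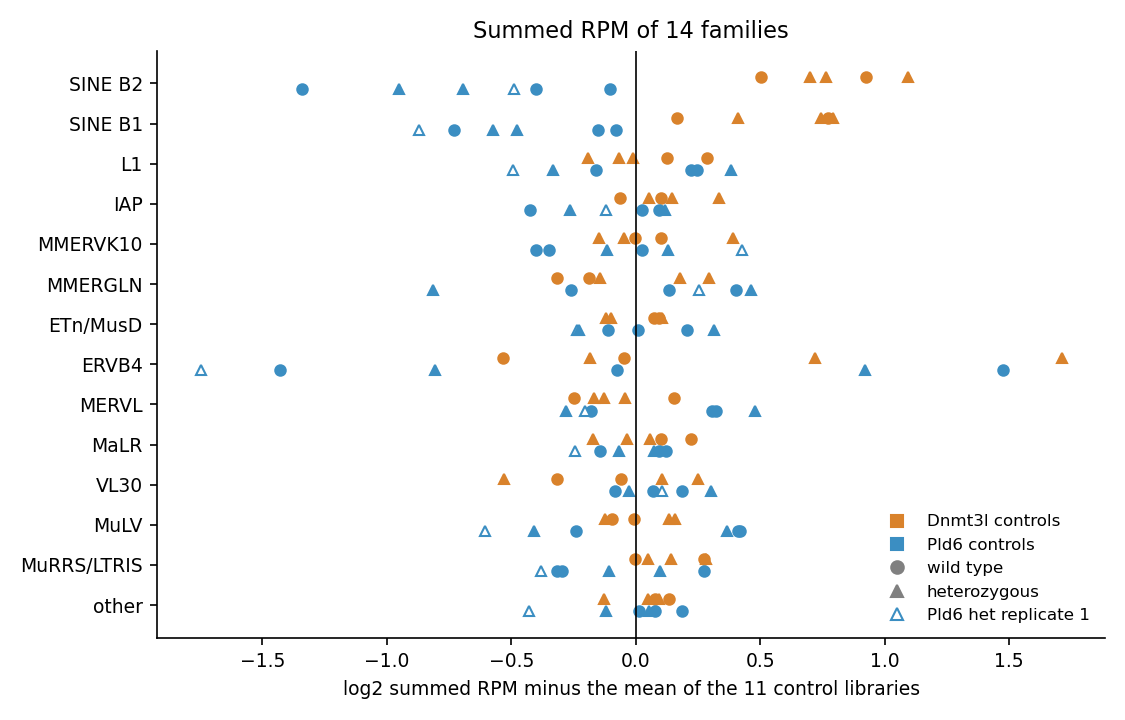
Log2 of the summed RPM of each family in each control library, minus the mean of the 11 libraries, for 14 families, with *Dnmt3l* and *Pld6* controls side by side and *Pld6* het replicate 1 as an open symbol. The lines separate for SINE B1 and SINE B2 (differences of 1.06 and 1.46) and overlap in the other 12 families.

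IAP1-MM_LTR, an LTR of the IAP family, was the one subfamily outside SINEs that passed. It was at 4.20, 4.67, 3.84, 4.24 and 4.8 RPM in the *Dnmt3l* controls and at 2.31, 3.09, 3.77, 2.38, 2.47 and 2.17 RPM in the *Pld6* controls. The lowest *Dnmt3l* value, 3.84 RPM, exceeded the highest *Pld6* value, 3.77 RPM, by little. The log2 difference was 0.54 (SE 0.15, adjusted p = 0.0433 from limma), and the call was lost in 9 of 11 fits that each left out 1 library (those with *Pld6* WT replicate 3 or *Pld6* het replicate 1 left out kept it). Its internal region IAP1-MM_I was at 54.8 ± 6.24 and 48.5 ± 5.90 RPM and IAPEz-int at 85.8 ± 7.96 and 76.6 ± 9.50 RPM, with adjusted p-values of 0.555. In the IAP family, 16 of 17 tested subfamilies had a positive difference, beside 79 of all 105 tested. The median difference was 0.32 in IAP and 0.16 for all subfamilies tested.

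Without *Pld6* het replicate 1, 8 of the 105 subfamilies were higher in the *Dnmt3l* controls (7.62%) and 0 lower, with 15 higher and 1 lower at an unadjusted p under 0.05. The subfamily added was RLTR45-int, the internal region of an endogenous retrovirus, named here after its values were seen. It was at 5.60 to 7.46 RPM in the *Dnmt3l* controls, at 3.91 to 5.15 RPM in 5 *Pld6* controls and at 0.64 RPM in *Pld6* het replicate 1. Its log2 difference was 0.79 (adjusted p = 0.228) with that library and 0.50 (adjusted p = 0.0169 from limma) without it. Across the 105 subfamilies, 9 had all *Dnmt3l* controls above all *Pld6* controls (8.57%), and 0 had the reverse (0%). The 9 were the 7 called subfamilies, RLTR45-int and the IAP LTR IAPLTR1_Mm. The same 9 were found against the 5 other *Pld6* controls (8.57%). IAPLTR1_Mm was at 3.51 ± 0.523 RPM against 2.59 ± 0.306 RPM, a log2 difference of 0.33 that did not pass (adjusted p = 0.312).

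**Figure D4:**
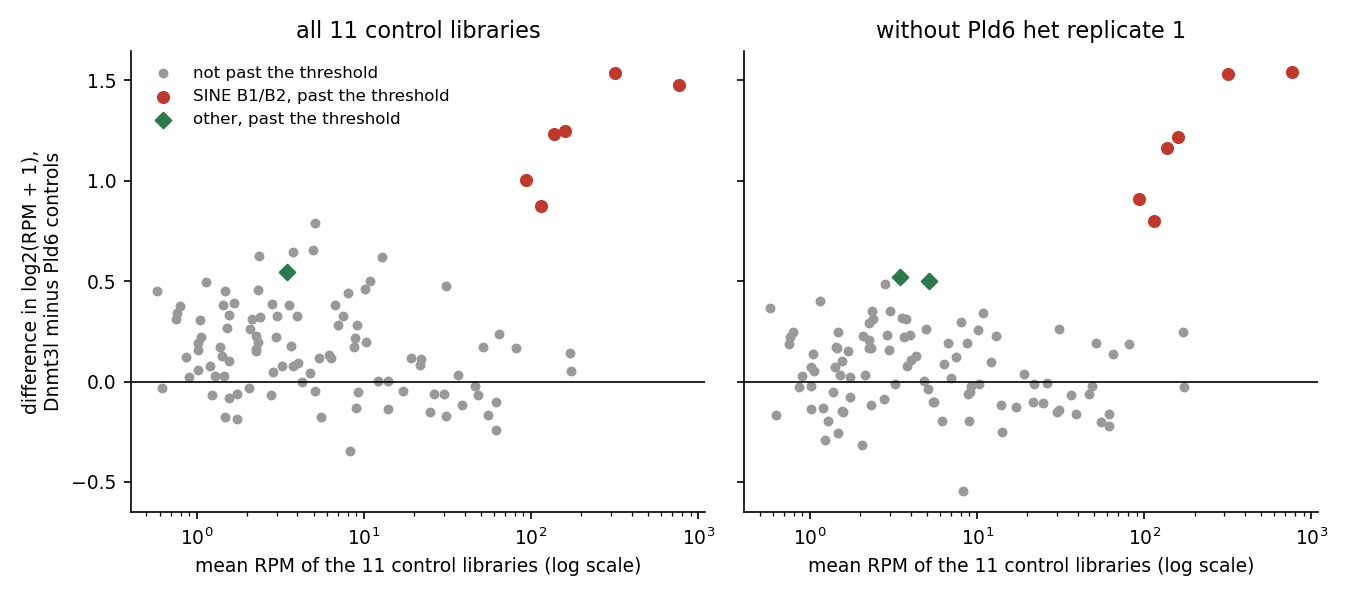
Log2 difference in RPM + 1 (*Dnmt3l* minus *Pld6* controls) against the mean RPM (log axis) of each of the 105 tested subfamilies, with all 11 libraries on the left and without *Pld6* het replicate 1 on the right. The 6 SINE subfamilies lie between 0.88 and 1.54 on the left, while the median of all subfamilies is 0.16 on the left and 0.07 on the right.

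The other abundant or marker subfamilies gave no call. MMERVK10C was at 179 ± 33.0 RPM in the *Dnmt3l* controls and 164 ± 40.8 RPM in the *Pld6* controls, and its log2 difference of 0.14 became 0.25 without *Pld6* het replicate 1, the highest *Pld6* control for this subfamily (235 RPM). L1_Mm_orf2 differed by 0.05 (95% interval -0.32 to 0.43). MMVL30-int was at 56.4 ± 13.6 and 65.8 ± 7.34 RPM (log2 difference -0.24, adjusted p = 0.555) and MERVL at 51.1 ± 6.56 and 58.5 ± 13.9 RPM (-0.17, adjusted p = 0.702). MT-int, ETnERV and LTRIS_Mus differed by -0.02, 0.00 and 0.04. L1Md_A_5end ranged from 7.71 to 10.4 RPM in the *Dnmt3l* controls and from 2.21 to 12.6 RPM in the *Pld6* controls, so that its log2 difference of 0.22 turned to -0.06 without *Pld6* het replicate 1, the library at 2.21 RPM.

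Internal regions were compared with their own LTRs, and the 5′ with the 3′ region of L1Md_A, since a ratio within a library does not depend on its scaling. None of the 10 ratios passed, with or without *Pld6* het replicate 1, and 0 had an unadjusted p under 0.05 with all libraries. The ratio of IAPEz-int to its LTR IAPLTR1_Mm was 24.9 ± 4.08 in the *Dnmt3l* and 29.9 ± 4.98 in the *Pld6* controls (exact p = 0.134). That of MERVL to its LTR MT2_Mm was 3.95 ± 0.713 and 4.03 ± 0.830, and that of MMERGLN-int to MMERGLN_LTR 3.03 ± 0.946 and 3.03 ± 1.28. The L1Md_A 5′ to 3′ ratio was 0.316 ± 0.062 and 0.266 ± 0.128, and 0.307 ± 0.089 in the *Pld6* controls without het replicate 1, where it was 0.061.

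Because a share falls when another rises, the SINE difference was carried into the shares of nearly all families. SINE B2 took 48.9% ± 2.56 of the retrotransposon reads in the *Dnmt3l* controls and 29.8% ± 7.70 in the *Pld6* controls, a difference of 19.1 percentage points (exact p = 0.00433, adjusted p = 0.00673 over 14 families). SINE B1 took 12.4% ± 1.31 and 9.72% ± 1.33. L1 took 13.03% ± 2.16 and 20.6% ± 4.30, a difference of -7.61 points. In all, 13 of 14 shares differed, 2 of them higher and 11 lower in the *Dnmt3l* controls, and ERVB4 did not pass (adjusted p = 0.732). The same number differed without *Pld6* het replicate 1, by 20.2 points for SINE B2 and by -8.58 points for L1. When shares were taken of the reads outside SINEs, 0 of 12 differed after adjustment. L1 then took 33.6% ± 4.02 and 34.0% ± 3.69, MMERVK10 15.2% ± 1.62 and 15.2% ± 4.34, and IAP 15.4% ± 1.43 and 13.9% ± 0.905 (exact p = 0.0779, adjusted p = 0.346). MERVL took 4.45% ± 0.477 and 5.20% ± 0.404, the only share with an unadjusted p under 0.05 in all 11 libraries (exact p = 0.0260, adjusted p = 0.312). Without *Pld6* het replicate 1 the IAP share also had one (exact p = 0.0397, adjusted p = 0.238).

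The line difference was looked at in each genotype as labelled. The methods text counts the *Dnmt3l* control genotypes otherwise, so the results by genotype hold only if the labels are right. With wild-type libraries alone, 2 against 3, the log2 differences of the 6 SINE subfamilies ran from 0.63 to 1.42 and none passed, with 0 calls by limma and 12 subfamilies at an unadjusted p under 0.05. With heterozygous libraries alone, 3 against 3, they ran from 1.09 to 1.76 and all 6 passed. Exact tests of the sums cannot go below p = 0.2 for 2 against 3 libraries or below 0.1 for 3 against 3. The difference between the genotypes was itself tested as an interaction of line and genotype. It passed for 0 of 105 subfamilies (1 at an unadjusted p under 0.05, smallest adjusted p = 0.925 from limma). For B2_Mm1a it was 0.09 (95% interval -1.04 to 1.23), so a wide range of differences was left undecided.

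Libraries of a line also differed among themselves. In the *Pld6* wild-type libraries, in replicate order, the SINE sums given above stood beside L1 sums of 433, 574 and 564 RPM. In the heterozygous ones the L1 sums were 344, 631 and 384 RPM. High SINE sums thus occurred with high and with low L1 sums, as in WT replicates 2 and 1. Of 50 subfamilies with a mean of at least 5 RPM, ERVB4_1B-I_MM, an internal region of the ERVB4 retroviruses, and IAPEY4_I, an IAP internal region named here after its values were seen, had the largest spread within lines, with and without *Pld6* het replicate 1. ERVB4_1B-I_MM was at 21.0, 14.8, 80.8, 39.6 and 19.8 RPM in the *Dnmt3l* controls, 5.47-fold from lowest to highest. In the *Pld6* controls it was at 8.48, 66.1 and 21.1 RPM in wild type and at 9.16, 46.1 and 13.7 RPM in heterozygous mice, 7.79-fold from lowest to highest. IAPEY4_I was at 9.39 to 28.4 RPM and at 7.22 to 28.4 RPM. *Dnmt3l* het replicates 1 and 2 and *Pld6* WT replicate 2 and het replicate 2 were the highest of their lines for ERVB4_1B-I_MM, and all 4 were above 20 RPM for IAPEY4_I too. *Pld6* WT replicate 3 was also high for IAPEY4_I (25.6 RPM) but not for ERVB4_1B-I_MM. The libraries high for ERVB4_1B-I_MM thus occurred in both lines. In the *Pld6* line they were of both genotypes, while in the *Dnmt3l* line both were labelled heterozygous.

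The KO libraries are given beside the controls without a test. The SINE sum was 1215 to 1408 RPM in the 3 *Dnmt3l* KO libraries, below all 5 controls of that line (1881 to 2846 RPM). In the 5 *Pld6* KO libraries it was 563 to 1529 RPM, overlapping the 6 controls of that line (616 to 1288 RPM). The sum outside SINEs was 11251 to 13388 RPM in *Dnmt3l* KO and 5649 to 7469 RPM in *Pld6* KO libraries, against 1362 to 1568 RPM and 1213 to 1699 RPM in the controls of each line.

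**Figure D5:**
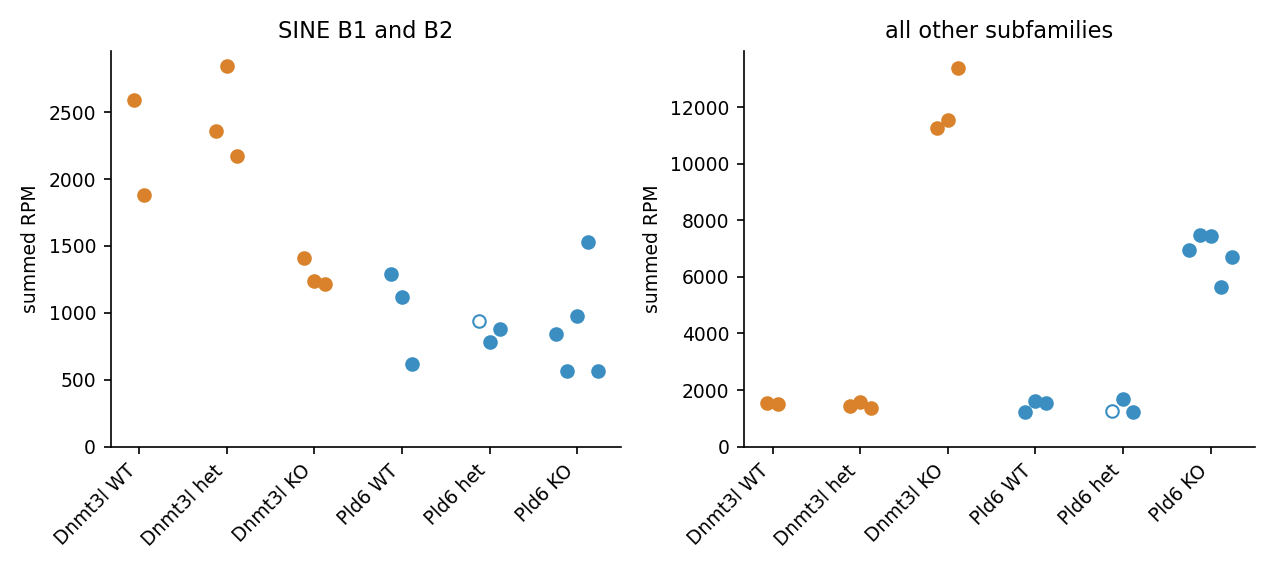
Summed RPM (linear axis) of SINE B1 and B2 and of all other subfamilies in each library of the 6 groups, wild type, het and KO of both lines. The SINE sums of the *Dnmt3l* controls (1881 to 2846 RPM) lie above every other group, while the sums outside SINEs of the control groups overlap (1213 to 1699 RPM) and those of both KO groups lie above them.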

How the data were processed

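The deposited tables, 1 per library, give RPM for 259 retrotransposon subfamilies, per the labels and the study's methods from polyadenylated RNA sequenced as single-end reads of 50 bases and mapped by the authors with hisat2 to consensus sequences. The submitters' processing notes name Trim Galore and mm10; versions, and the mapping that gave the mapped reads to which RPM is scaled, are not given in the sources used here. RPM is not a count, and whole reads could not be recovered (60.0% to 91.8% of low values fell on the best common step in the 19 libraries), so no count model was used and the depth is unknown, with no counting interval for any value. No consensus sequence was given, and no consensus length was used.

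Libraries were grouped by GEO's labels. Subfamilies with at least 1 RPM in at least 2 of the 11 control libraries (105) were tested with limma 3.58.1 (R 4.3.3; trended eBayes) on log2(RPM + 1), on which scale the differences of low subfamilies are understated. P-values were adjusted by Benjamini-Hochberg with a threshold of 0.05. Sums, shares and log2 ratios were compared by two-sided exact permutation tests (scipy 1.17.1). Families were assigned from repeat names. The subfamilies named were the 12 highest by mean and called subfamilies whose lines did not overlap (up to 8 each way). Both parts of 10 element pairs and the leading subfamily of each of 14 families were also named. Named outside this rule, with their values known, were RLTR45-int, IAPEY4_I, IAP1-MM_I, LTRIS2, LTRIS_Mm, MuRRS-int, MuRRS4-int and RLTR20C1_MM. Members and lists were chosen with earlier results of these data known. Libraries with equal replicate numbers were not treated as paired across the lines, except in the replicate block. The labels call the replicates biological. Alternatives covered the pseudocount, filter, scaling, model terms, genotype, replicate block and each library left out.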

Additional observations from a re-analysis of the deposited data

Results flagged for a closer look

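In groups of 5 or 6 control libraries, the gap between an extreme library and its nearest neighbour, as a share of the group's range, exceeded Dixon's 95% critical value in 7 of 148 groups checked, where chance alone gives about 1 in 20, or 7.4. *Pld6* het replicate 1 was the library in 3 of them. Its MMERGLN_LTR level was 2.75 RPM against at most 1.79 RPM in the other *Pld6* controls (gap 0.744). Its ratio of MT-int to MTA_Mm was 0.703, with the next lowest at 0.958 (gap 0.735), and its ratio of ORR1A1-int to ORR1A1 was 5.14, with the next highest at 3.03 (gap 0.756). *Dnmt3l* het replicate 1 was the library in 3 others. Its MT2_Mm level was 10.4 RPM, with the next lowest at 13.3 RPM (gap 0.762), its RLTR44-int level was 19.4 RPM, with the next lowest at 26.0 RPM (gap 0.784), and its ERVB4 share was 2.72%, with the next highest at 1.18% (gap 0.744). In *Dnmt3l* WT replicate 2 the ETn/MusD share was 1.05%, with the next highest at 0.877% (gap 0.743).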

How the results depend on the processing

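Without counts, low values carry an unknown error, and 2 or 3 libraries per genotype limit the tests within a genotype. All 6 SINE subfamilies passed under every alternative fit except wild-type libraries only and the rescaling to equal summed RPM. Leaving out each library gave 6 to 8 subfamilies higher and 0 lower, 4 of 17 sums, 12 to 13 of 14 shares and 0 ratios. The SINE difference then ran from 1.25 to 1.46 and that of all subfamilies (0.70 with all libraries) from 0.65 to 0.75 on the log2 scale. Wild-type libraries only gave 0 subfamilies higher, 0 sums and 0 shares (SINE difference 1.2, all subfamilies 0.60), and heterozygous libraries only gave 0 sums and 0 shares (1.497 and 0.79), since neither design allows an exact p under 0.05.

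Rescaling each library to equal summed RPM, which by construction lowers all other families where SINEs are high, gave 4 subfamilies higher and 32 lower and 15 sums that differed, with a median difference of -0.32. It reversed L1_Mm_orf2 (-0.65), MMERVK10C (-0.56), IAPEz-int (-0.53), ORR1A1-int (-0.55), RLTR10C (-0.46), RLTRETN_Mm (-0.47), ETnERV (-0.65) and LTRIS_Mus (-0.54). It also reversed the sums of ETn/MusD (-0.69), IAP (-0.49), L1 (-0.65), MMERVK10 (-0.60), MaLR (-0.64), MuLV (-0.68), MuRRS/LTRIS (-0.43), the unnamed families (-0.62) and all subfamilies outside SINE (-0.64). Taking shares outside SINE left 0 shares differing and turned the differences of IAP (1.47 points), ERVB4 (0.849, not a call in either), MMERVK10 (0.0019), MuRRS/LTRIS (0.15) and the unnamed families (0.030). Median-ratio scaling moved the median difference from 0.16 to 0.08 and left 6 higher, and the MERVL sum became a call, lower in *Dnmt3l* controls (-0.27). Combined with leaving out *Pld6* het replicate 1, an alternative added after the data were seen, it gave 8 higher and 1 lower (RLTR20C1_MM), and the cause was not tested.

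Deviations of same-numbered libraries of the lines correlated at -0.288 to 0.167 over 5 pairs. Each deviation was taken from a group mean of few libraries, so whether such libraries were processed together is not decided. With the replicate block, limma gave 6 higher and 0 lower, and 0 sums passed (SINE 1.25, all subfamilies 0.68), since exact sign flips of 5 pairs allow no p below 0.0625. *Pld6* WT replicate 3, the control with the lowest SINE sum (616 RPM), had no partner and so added nothing to these line differences. Over 72 single results and 1454 alternatives of them, 1232 kept direction and call, 68 lost and 16 gained a call, 117 changed sign with no call and 21 reversed.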
